A study of Drosophila melanogaster with 2 samples.

Results

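The spliceosome and Sm protein genes examined here are 33 of the 13968 protein-coding genes of Drosophila melanogaster on the 7 chromosomes used. They were chosen by symbol alone: SmB, SmD1, SmD2, SmD3, SmE and SmF, and all symbols that begin with LSm, Sf3, U2af, snRNP-U1, or Prp and a digit. Of these, 6 formed the Sm group, 4 the LSm group, 2 the U1 group, 9 the U2 group (Sf3 and U2af) and 12 the Prp group. The rule also names SmG, but the annotation carries that gene as SNRPG, so it was not a member. The binding data came from 1 group of 2 biological replicates of whole embryos, aged 0 to 24 h, from the strain bbx-GFP, in which bbx (bobby sox, an HMG-box protein) is fused to eGFP. The fusion was pulled down with an antibody to GFP and the DNA was sequenced (ChIP-seq), with fragments in the range of 200 to 800 bp. Sex was not collected, the donor label is the same for both replicates, and no promoter driving the fusion is named in the sources used here. A signal from whole embryos is an average over their cell types and ages, and no untagged sample was used here.

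Most introns of flies are removed by the spliceosome, which is built from small nuclear RNAs and their proteins. The Sm proteins form a ring around the U1, U2, U4 and U5 RNAs, and related LSm proteins form a ring on U6 RNA, with a variant ring that acts in mRNA decay in the cytoplasm. The U1 particle marks the 5' splice site, U2AF and the U2 particle with its SF3A and SF3B complexes mark the 3' splice site and the branch point, and the Prp proteins, first found as yeast pre-mRNA processing mutants, include helicases and core proteins that act from assembly to release. These genes are active in most cells. Many broadly active fly promoters carry short elements such as the DNA replication-related element (DRE, bound by DREF), the overlapping core bound by BEAF-32, and the element called motif 1.

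The stretches below show the sequence around a summit in each group, next to promoters that had no conservative summit. Each line is the RefSeq Release 6 genome (the coordinates of dm6), 5' to 3' on the strand of the named gene. At occupied members it covers up to 100 bases to either side of the summit and is shortened where it ran into exons. For LSm3 and Prp31, which had no summit, it instead spans an annotated TSS and is 60 and 180 bases long. Those stretches are thus not windows of the same kind as the others. Capitals mark TATCGATA (the DRE), CGATA (the BEAF core; TATCG on the other strand) and GGTCACAC (the motif 1 core; GTGTGACC on the other strand). snRNP-U1-70K, Sf3a1 and Prp40 had the highest signal of the occupied members in their groups. However, snRNP-U1-70K was the only occupied U1 gene, and its pooled signal of 51.2 was the lowest of all occupied members. SmE and LSm-4 came after SmD3 and LSm1, which are not printed. Sf3b1 came after Sf3a1 in the U2 group, and Sf3b3, added after the data were seen, holds whole DREs. LSm3 and Prp31 had the lowest pooled signals of all members (17.4 and 18.4). Neither stretch holds CGATA, but 4 of the 10 promoters of members without a summit did.
SmE, chr2L:7885421-7885532, minus strand: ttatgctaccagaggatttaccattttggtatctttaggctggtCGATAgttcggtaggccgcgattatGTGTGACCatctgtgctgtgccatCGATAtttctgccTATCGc
LSm-4, chr2L:10405174-10405326, minus strand: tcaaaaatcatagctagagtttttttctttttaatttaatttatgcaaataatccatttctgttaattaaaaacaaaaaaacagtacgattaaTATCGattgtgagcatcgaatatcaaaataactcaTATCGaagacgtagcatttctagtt
snRNP-U1-70K, chr2L:6971828-6972028, minus strand: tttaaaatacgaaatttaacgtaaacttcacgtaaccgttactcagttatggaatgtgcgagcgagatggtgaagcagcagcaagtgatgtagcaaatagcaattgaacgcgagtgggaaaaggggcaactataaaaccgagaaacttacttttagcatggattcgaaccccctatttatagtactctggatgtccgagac
Sf3a1, chr3R:17002326-17002495, minus strand: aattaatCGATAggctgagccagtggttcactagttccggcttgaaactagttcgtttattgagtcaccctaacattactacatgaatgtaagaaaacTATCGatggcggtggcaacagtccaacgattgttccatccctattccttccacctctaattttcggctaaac
Prp40, chr2L:3023112-3023255, plus strand: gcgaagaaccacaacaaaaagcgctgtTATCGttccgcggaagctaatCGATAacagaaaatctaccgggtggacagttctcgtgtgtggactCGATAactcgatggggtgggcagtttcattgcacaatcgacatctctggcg
Sf3b1, chr2L:568197-568369, plus strand: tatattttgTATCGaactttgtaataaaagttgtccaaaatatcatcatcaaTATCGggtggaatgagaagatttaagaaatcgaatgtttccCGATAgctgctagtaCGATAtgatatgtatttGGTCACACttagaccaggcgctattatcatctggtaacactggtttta
Sf3b3, chr3L:833356-833526, minus strand: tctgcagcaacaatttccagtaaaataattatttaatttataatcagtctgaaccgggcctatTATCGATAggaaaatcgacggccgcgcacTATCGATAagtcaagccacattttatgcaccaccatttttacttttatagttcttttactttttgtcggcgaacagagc
LSm3, no summit, chr3R:23996232-23996291, plus strand: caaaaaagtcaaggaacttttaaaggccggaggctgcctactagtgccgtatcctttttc
Prp31, no summit, chr3L:15158950-15159129, plus strand: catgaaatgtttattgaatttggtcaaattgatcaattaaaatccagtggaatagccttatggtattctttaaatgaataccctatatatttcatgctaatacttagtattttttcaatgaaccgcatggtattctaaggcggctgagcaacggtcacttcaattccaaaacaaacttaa

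At the 23 members called occupied, the gene had a summit of the authors' conservative peak set within 500 bp of 1 of its transcription start sites (TSSs). That is 69.7% of the 33, beside 30.8% of all protein-coding genes (4304 of 13968). By group, a summit stood at 5 of 6 Sm genes, 2 of 4 LSm genes, 1 of 2 U1 genes, 7 of 9 U2 genes and 8 of 12 Prp genes. No test was run on these counts, because the members were chosen with earlier results of the data known, and groups of 2 to 12 genes cannot be ordered from them. On its own, the list of replicate 1 reached 21 members (30.6% of all protein-coding genes) and that of replicate 2 reached 19 (23.7%), and all 19 were also in the list of replicate 1. The series' other thresholded set also reached 23 members (34.6% of all protein-coding genes), but not the same ones: it lacked SmD2 and held snRNP-U1-C.

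**Figure D1:**
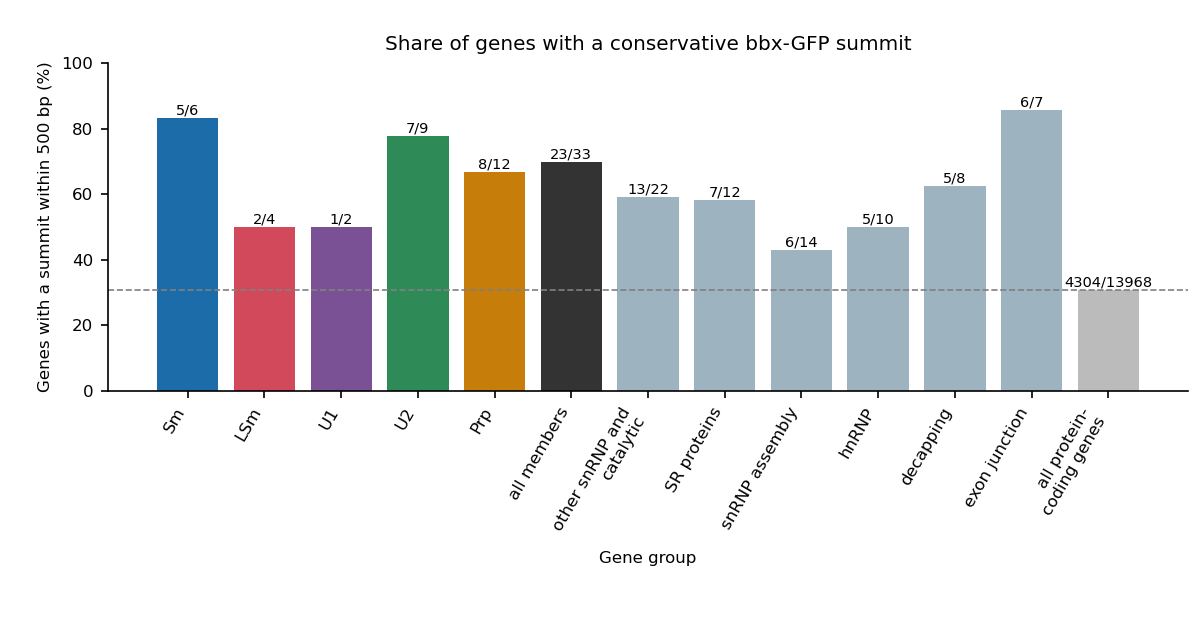
Share of genes with a conservative summit within 500 bp of a TSS (vertical axis, in percent) for each group of members, for all members, for 6 other lists of RNA-processing genes and for all protein-coding genes, with the counts above the bars and a dashed line at the share of all protein-coding genes. All members stand at 69.7%, and all protein-coding genes at 30.8%.

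The peak signal is the authors' enrichment value for a peak, in pooled reads or in 1 replicate; the sources used here do not state how it is scaled, so it has no unit. Over the 23 occupied members the median pooled signal was 139, and over all 4304 occupied protein-coding genes it was 133. The ratio of these medians was 1.04, and it was 1.05 with replicate 1 signals and 1.07 with replicate 2 signals. Of the 23 occupied members, 5 lay above the upper quartile of all occupied genes (235), and 5 lay below the lower quartile (86.8). The members thus had summits more often than protein-coding genes as a whole, while the median signal of those that had one was close to that of all occupied genes. The members' signals ran from 51.2 to 767, and those of all occupied genes from 2.21 to 1502.

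Among the Sm genes, SmD3 and SmE stood apart from the others. SmD3, which encodes a core protein of the Sm ring, had a signal of 481 in replicate 1 and 282 in replicate 2 (382 ± 141, SD, n = 2; pooled 767), rank 57 of the 4304 occupied genes. At SmE, another ring protein, the replicates gave 265 and 262 (264 ± 2.19, SD, n = 2; pooled 529), rank 150. Each replicate put these 2 genes above every other Sm gene.
SmB, whose protein carries a tail known to be methylated, had 79.6 in replicate 1 and 30.2 in replicate 2 (pooled 124). SmD1, the partner of SmD2 in ring assembly, had 43.1 and 65.6 (pooled 113). SmD2 itself had 40.5 and 30.3 (pooled 77.1). The order of SmB and SmD1 turned over between the replicates, so these lower Sm genes cannot be ranked beyond their spread. SmF had no conservative summit: the strongest peak of the ranked list of the replicate comparison within 500 bp had a signal of 27.4, with 24.2 and 13.1 in the replicates, and an irreproducible discovery rate (IDR) of 0.669, far from the threshold of 0.01.

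The LSm genes split evenly. LSm1, the subunit that defines the cytoplasmic decay ring, had 176 in replicate 1 and 95.7 in replicate 2 (pooled 259). LSm-4, part of both rings, had 124 and 85.6 (pooled 205). Both exceeded the median of all occupied genes in each replicate, which was 76.0 in replicate 1 and 58.5 in replicate 2. LSm3 and LSm7, further ring subunits, had no conservative summit. Their ranked peaks had pooled signals of 17.4 (22.3 and 9.76 in the replicates; IDR 0.652) at LSm3 and 43.3 (30.7 and 24.0; IDR 0.421) at LSm7. Both lay below the medians of all occupied genes in each replicate. By percent identity over the shorter protein, LSm3 and LSm-4 each matched SmD2 best among the Sm proteins (35.0% and 34.5%). LSm7 and LSm1 each matched SNRPG best (39.5% and 35.5%). The best match depends on this measure: LSm1 had more identical residues with SmB (31) than with SNRPG (27). These matches therefore do not establish which proteins are counterparts in the rings. SmD2, SNRPG and LSm-4 had a summit and LSm3 and LSm7 had none. The summit of LSm-4 is equally that of CG17768, whose TSS is at the same base. For LSm1 the counted summit lay 16 bp from the TSS of its neighbour Xpd. That summit was lost to LSm1 at 200 bp and with each summit given to the nearest gene only.

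In the U1 group the values were low or short of the threshold. The protein encoded by snRNP-U1-70K binds the first stem-loop of U1 RNA. Its gene had 36.1 in replicate 1 and 35.1 in replicate 2 (pooled 51.2), the lowest pooled signal of the 23 occupied members. At snRNP-U1-C, whose protein contacts the 5' splice site, the ranked peak had a higher pooled signal of 94.7, but 61.6 in replicate 1 and 22.2 in replicate 2, and an IDR of 0.0235. It was thus outside the conservative set, although a summit of the replicate 1 list and of the series' other thresholded set stood within 500 bp. Read by signal the order of these 2 genes is the reverse of the order by call, and in replicate 2 alone snRNP-U1-70K was the higher.

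The U2 group had 7 of 9 genes occupied, and 5 of them were above the median signal of all occupied genes. Sf3a1, a subunit of the SF3A complex, led with 236 in replicate 1 and 197 in replicate 2 (217 ± 28.1, SD, n = 2; pooled 447). Both values exceeded those of every other gene in the group. Sf3b1, the branch-point clamp of SF3B and a gene often mutated in human blood cancers, had 101 and 113 (pooled 222). Sf3b3, the large scaffold subunit, had 124 and 96.8 (pooled 218). The order of these 2 differed between replicates, so they were not separable.
Sf3a2 had 59.3 and 86.5 (pooled 153), and Sf3b2, which binds near the branch point, had 83.4 and 58.0 (pooled 147). U2af38, the small U2AF subunit that reads the AG of the 3' splice site, had 68.0 and 62.4 (pooled 123). These 3 genes overlapped one another across the replicates. Sf3b6, the subunit that lies near the branch-point adenosine, had 34.3 and 26 (pooled 58.2) at an IDR of 0.00855, the occupied member nearest to the threshold. Without a summit were Sf3b5 (ranked signal 35.3; 19.98 and 14.6 in the replicates; IDR 0.267) and U2af50, the large U2AF subunit that binds the polypyrimidine tract (61.6; 38.5 and 34.1; IDR 0.586). The U2AF pair was thus split, with the small subunit's gene called and higher in both replicates. U2af50 had a higher pooled signal than the called Sf3b6, so the order by signal is not the order by IDR.

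Of the Prp genes 8 of 12 were occupied, and Prp40 had the highest signal. Prp40, a U1-associated factor that bridges to the branch-point region in yeast, had 164 in replicate 1 and 116 in replicate 2 (140 ± 34.4, SD, n = 2; pooled 280), above all other Prp genes in both. Prp5, a helicase that acts on the U2 particle, had 86.8 and 86.5 (pooled 149). Prp39, like Prp40 a U1-associated protein in yeast, had 86.6 and 57.2 (pooled 135). Replicate 1 did not separate Prp5 from Prp39.
Prp38, required to activate the spliceosome, had 72.8 and 58.4 (pooled 139), and Prp8, the core protein at the catalytic centre, had 62.7 and 50.8 (pooled 122). Prp6, a bridging protein of the tri-snRNP, had 49.8 and 50.2 (pooled 91.6). Prp8 and Prp6 differed by little in replicate 2. Weakest of the called genes were Prp16, a helicase of the second catalytic step (37.6 and 32.9; pooled 69.5), and Prp3, a U4/U6 protein (29.2 and 35.5; pooled 56.0; IDR 0.00684).
Prp19, a ubiquitin ligase of the active spliceosome, just missed the set: its ranked peak had a signal of 58.0 (29.3 and 26.4 in the replicates) and an IDR of 0.0113, so its pooled signal was above that of Prp3, which was called. Prp18, a second-step factor, had 56.8 (26.1 and 21.4; IDR 0.0370). Prp4k, a kinase of the tri-snRNP, had 36.9, with 35.0 in replicate 1 and 10.9 in replicate 2 (IDR 0.716), and a summit of the replicate 1 list alone stood nearby. Prp31, another U4/U6 protein, was the lowest: a pooled signal of 18.4, 2.84 in replicate 1, no ranked peak within 500 bp in replicate 2, and an IDR of 0.842.

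**Figure D2:**
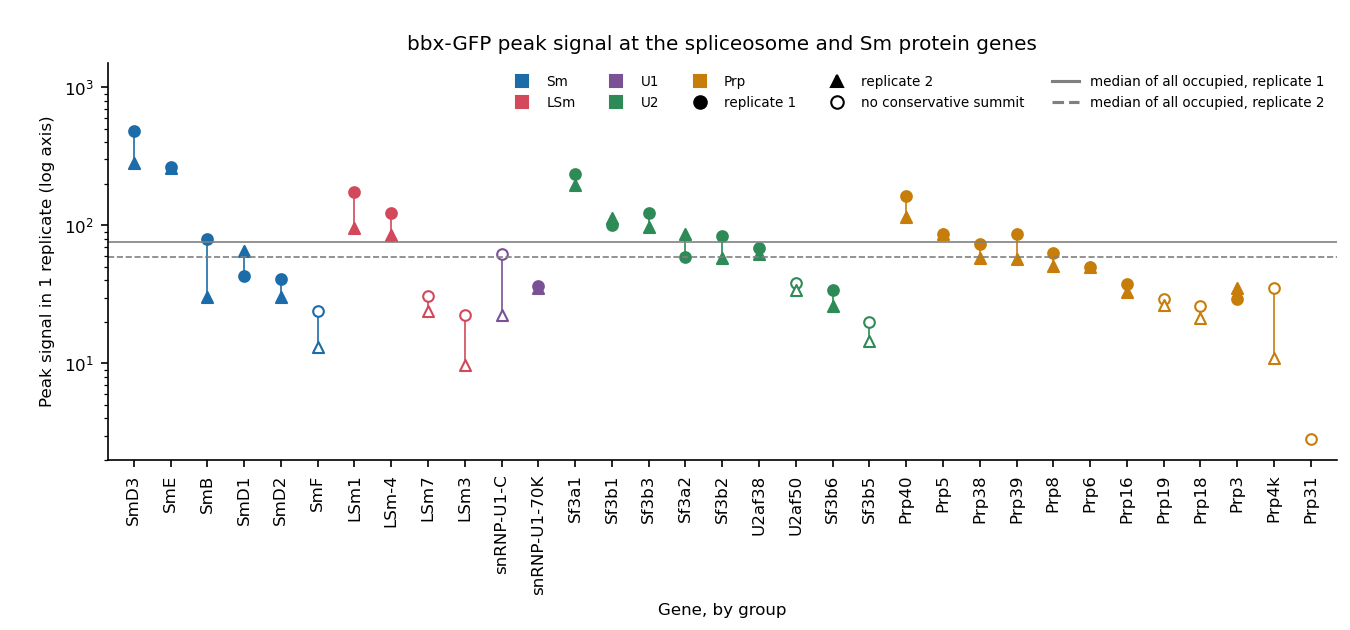
Peak signal (vertical axis, log scale, no unit) of each of the 33 members (horizontal axis, by group and then by pooled signal) in replicate 1 (circles) and replicate 2 (triangles), filled where the gene had a conservative summit and open where it had only a ranked peak outside that set, with grey lines at the medians of all occupied protein-coding genes in each replicate. SmD3 is highest in both replicates (481 and 282), and Prp31 has 1 open point at 2.84.

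All 10 members without a conservative summit had a ranked peak with an IDR above the threshold within 500 bp, with a median pooled signal of 40.1. Of all protein-coding genes without a conservative summit, 65.4% had such a peak, with a median of 31.8. The signals of called and uncalled members overlapped: snRNP-U1-C (94.7), U2af50 (61.6), Prp19 (58.0) and Prp18 (56.8) were each above at least 1 called member. Nearest to the threshold were Prp19 (IDR 0.0113) just outside and Sf3b6 (0.00855) and Prp3 (0.00684) just inside. The replicate values of the uncalled members are each replicate's strongest ranked peak within 500 bp, which need not be the pooled ranked peak.

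The replicates differed in level. At 18 of 23 occupied members the signal was higher in replicate 1, and at SmD1, Sf3a2, Sf3b1, Prp3 and Prp6 it was higher in replicate 2. The median ratio of replicate 1 to replicate 2 was 1.23 at the members and 1.27 at all occupied genes, so replicate 1 was the higher of the 2 libraries at both. SmB was the most uneven occupied member, with a ratio of 2.63. It has 2 conservative summits, and its replicate summits lay at 5 and 73 bp from the TSS, with the pooled one at 8 bp. Its replicate values may therefore belong to different peaks, and the same holds for Prp6 (-45 and 38 bp, pooled 22 bp). The summits of the replicates were a median of 15 bp apart and at most 83 bp apart, and 13 members had them within 20 bp. Each replicate's peak was the one overlapping the pooled peak with the summit nearest to the pooled summit. The closeness of the replicate summits is therefore partly set by this choice. At 4 occupied members (SmD2, Sf3b6, Prp16 and Prp3) neither replicate's own list reached the gene, and all 4 had pooled signals of 77.1 or less.

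Where a member was occupied, the summit usually sat just before the TSS. Its median place was -34 bp (negative is upstream), beside -39 bp for all occupied protein-coding genes. Of the 23 summits, 18 lay within 100 bp of the TSS (78.3%, beside 69.8% of all occupied genes), and 18 lay upstream (78.3%, beside 75.7%). The position of the members' summits was thus close to that of occupied genes in general.
The exceptions were LSm1 at -313 bp, SmD1 at -276 bp, Prp3 at -196 bp, snRNP-U1-70K at -191 bp and Prp8 at 101 bp. At Prp3 the summits of the single replicates lay at -74 and -95 bp, apart from the pooled one, so its replicate signals may not be those of the pooled peak. At LSm1 (-316 and -311 bp) and SmD1 (-275 and -329 bp) the replicate summits also lay far upstream. They come from peaks chosen for their overlap with the pooled peak.

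Several of these far summits were near the start of another gene. At 17 of 23 occupied members (73.9%) the same summit was within 500 bp of a TSS of another protein-coding gene that runs the opposite way, while 50.9% of all occupied genes shared their summit with another protein-coding gene. With a distance of 200 bp to both TSSs, 9 of 21 occupied members shared a summit. The distance between the paired TSSs was 42 to 520 bp, with a median of 243 bp, and 13 of the 17 summits lay between them. No share of all occupied genes is given beside this count or beside the 9 of 21. At 4 members the summit was nearer the neighbour's TSS: SmD1 (Ptp69D, a receptor tyrosine phosphatase, 58 bp away), LSm1 (Xpd, a helicase of the general factor TFIIH, 16 bp away), Prp40 (alpha4GT1, 26 bp away) and Prp3 (Mi-2, a nucleosome remodeller, 111 bp away). With each summit given to the nearest gene only, SmD1, LSm1 and Prp40 lost their call, so these summits cannot be assigned to the member rather than to its neighbour. Prp3 has a further, weaker summit and kept its call.
The other shared summits lay between or beside SmB and KdelR, SmD2 and CG18048, SmD3 and Oda (the ornithine decarboxylase antizyme), SmE and CG34132, LSm-4 and Ir31a, Sf3a1 and Irc, Sf3a2 and CG42588, Sf3b1 and Nle, Sf3b2 and CG17219, Sf3b6 and Tnpo (transportin), U2af38 and Stip1, Prp38 and shrb (an ESCRT-III subunit), and Prp6 and CSN1b (a signalosome subunit). LSm-4 also has its TSS at the same base as that of CG17768, on the same strand, so distance cannot assign its summit to either gene. The 6 occupied members that shared with no other protein-coding gene were snRNP-U1-70K, Sf3b3, Prp5, Prp8, Prp16 and Prp39.

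**Figure D3:**
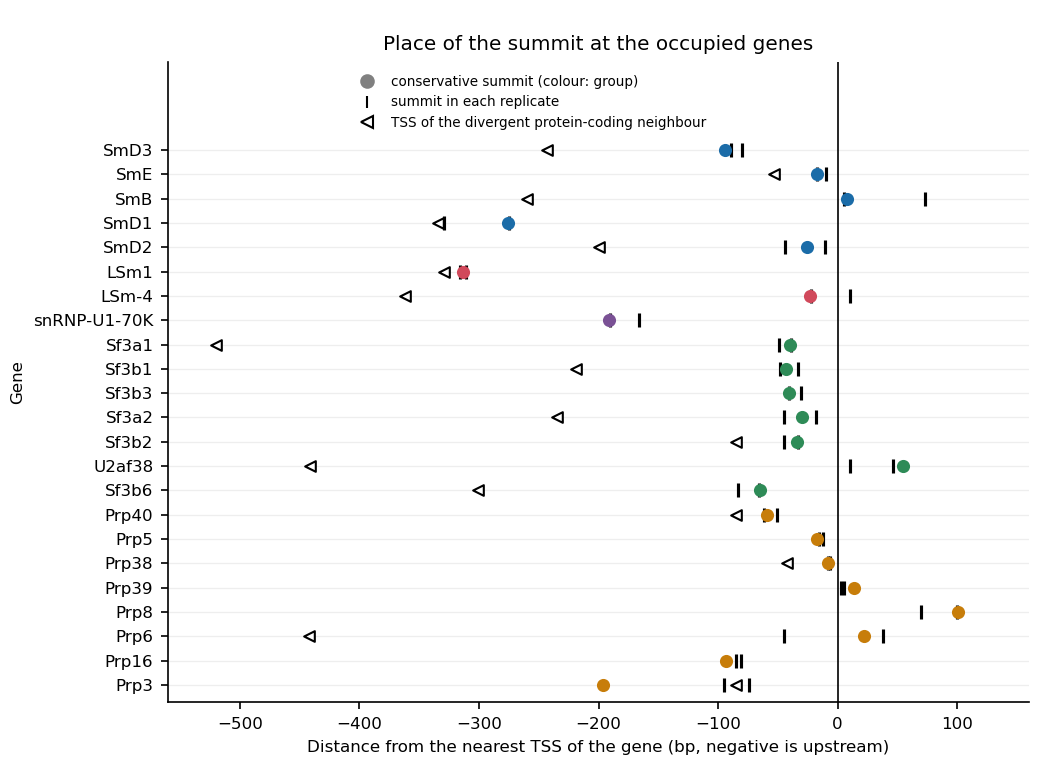
Place of the summit (horizontal axis, bp from the nearest TSS of the gene, negative upstream) at each of the 23 occupied members, with the pooled conservative summit as a coloured circle, the summits of both replicates as vertical ticks and the TSS of a divergent protein-coding neighbour as an open triangle. Most circles lie within 100 bp of 0, and those of LSm1 and SmD1 lie beside the triangle of their neighbour.

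Such paired promoters were common among the members whether or not they were occupied. A divergent protein-coding TSS within 500 bp was present at 22 of 33 members (66.7%), beside 27.3% of all protein-coding genes. Of those 22 members 16 were occupied (72.7%), beside 55.1% of all genes with such a neighbour. Of the 11 members without one 7 were occupied (63.6%), beside 21.7% of all genes without one. The members' share was above that of all genes in both classes, and the part of the paired layout in the overall share was not tested further.
An annotation of 1 TSS was held by 28 of 33 members, beside 73.5% of all protein-coding genes. Of these 28 members 20 were occupied, beside 25.6% of all genes with 1 TSS. The median length of the members was 2007 bp, beside 2164.5 bp for all protein-coding genes. Occupied members had a median length of 2205 bp and those without a summit 1045 bp, and the part of length in the calls was not tested.

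Of the 12 short motifs searched on both strands, several were found in a larger share of the members' promoters than of all promoters. These were CGATA, the DRE, the motif 1 core and, as given below, the motif 7 core, the motif 6 core, TATAAA and CAGGTA. In the promoters (250 bases before the TSS to 50 after) CGATA was found in 25 of 33 members (75.8%), beside 53.0% of all protein-coding promoters. The DRE octamer TATCGATA, which contains CGATA on both strands, was in 8 (24.2%, beside 10.2%). The motif 1 core GGTCACAC was in 9 (27.3%, beside 8.69%). Occupied promoters in general stood nearer to the members. Among the 23 occupied members CGATA was in 21 (91.3%, beside 78.3% of all occupied protein-coding promoters), the DRE in 7 (30.4%, beside 26.2%) and the motif 1 core in 7 (30.4%, beside 14.4%). The members with a promoter DRE were SmB, SmE, snRNP-U1-C, Sf3b2, Sf3b3, U2af38, Prp39 and Prp6, so it was present in the Sm, U1, U2 and Prp groups and in no LSm gene.
The remaining motifs had no common direction. CAGCNCTG (motif 7 core) and GGTATTT (motif 6 core) were in 4 members each (12.1%, beside 8.84% and 11.6%), and GGTATTT was in only 1 of the 23 occupied members (15.4% of all occupied promoters). There was TATAAA in 20 (60.6%, beside 51.2%) and TCAGT (initiator) in 15 (45.5%, beside 58.5%). GAGAG was in 6 members (18.2%, beside 36.2%) and AACAAT, a core of SOX-type HMG boxes, in 8 (24.2%, beside 37.3%). Within 100 bp of the summit the direction for AACAAT was the other way, with 7 of the 23 occupied members (30.4%, beside 24.0% of all occupied genes). CAGGTA (Zelda) was in 3 (9.09%, beside 8.42%), CTTTGAT (TCF) in 2 (6.06%, beside 6.57%) and TGAATGAA (capicua) in 1 (3.03%, beside 3.79%). A match is only a run of letters and does not show that a factor is bound.

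Within 100 bp of the summit, 21 of the 23 occupied members had CGATA (91.3%), beside 71.3% of all occupied genes. The exceptions were snRNP-U1-70K, whose sequence above holds no capitals, and Prp8. A median of 19 bp separated the summit from the nearest copy, and in 19 members that copy was within 50 bp. No value for all occupied genes is given beside this distance or this count, so they describe the members only. These 21 genes held 56 copies in all. At least 2 copies were present at 16 genes (54.5% of all occupied genes had as many), and SmE had the most with 5, counting a whole DRE as 2 copies.
The whole DRE was within 100 bp of the summit at 7 members (30.4%, beside 25.1%): SmD1, SmE, Sf3b2, Sf3b3, U2af38, Prp39 and Prp6. At Sf3b3 both octamers printed above lie close before the summit, centred at -33.5 and -4.5 bp from it along the gene's strand. In SmE the octamer is centred at -72.5 bp from the summit, outside the printed stretch. The motif 1 core was within 100 bp at 3 members (13.0%, beside 9.97%): SmE, Sf3b1 and Sf3b6. Among the 10 members without a summit, CGATA was in 4 promoters (41.8% of all protein-coding genes without a summit) and the DRE in 1, that of snRNP-U1-C (3.0%). The motif 1 core was in 2 of these 10 promoters (6.14% of all protein-coding genes without a summit), so its larger share was not limited to occupied members.

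**Figure D4:**
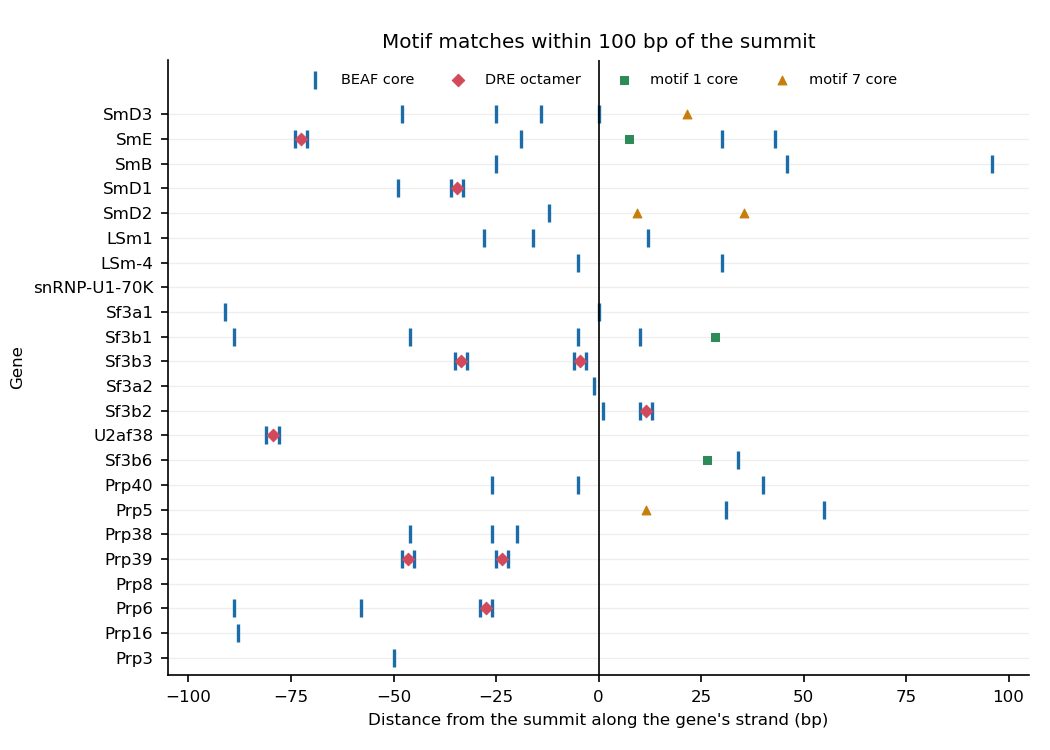
Places of 4 short motifs within 100 bp of the summit (horizontal axis, bp along the gene's strand, 0 is the summit) at the 23 occupied members, with BEAF cores as blue ticks, whole DREs as red diamonds, motif 1 cores as green squares and motif 7 cores as orange triangles. BEAF cores are present on 21 of the 23 lines, and snRNP-U1-70K and Prp8 have none.

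Related genes outside the naming rule were looked at in the same way. Of 7 genes that encode proteins of the same families under other spellings, all had a conservative summit: SNRPG (the SmG protein; pooled signal 117), Lsm10 (154) and Lsm11 (108) of the U7 particle, Lsm12a (159), Spx (SF3B4; 186), noi (SF3A3; 96.5) and U4-U6-60K (the fly Prp4; 494). These 7 were picked after their values were seen. Their number therefore says nothing about the families, and other proteins of the SF3B complex and of the Prp class under other names had no summit, such as Phf5a and pea.
In 6 further lists of RNA-processing genes, 42 of 73 matched genes were occupied (57.5%, beside 30.8% of all protein-coding genes), with noi counted here as well. The exon junction complex had 6 of 7, the decapping partners of the LSm ring 5 of 8, other snRNP and catalytic proteins 13 of 22, SR proteins 7 of 12, hnRNP proteins 5 of 10 and the factors of snRNP assembly and transport 6 of 14. The 3 strongest of the exon junction complex were Pym (pooled signal 1149), Acn (418) and mago (281). Among the assembly factors they were Smn (249), whose complex loads the Sm ring onto RNA, Tgs1 (209), which hypermethylates the cap of the RNA, and vls (159), a subunit of the methylosome. For decapping they were Patr-1 (277), DCP2 (264), the decapping enzyme, and Ge-1 (95.2).
The highest of the other snRNP and catalytic proteins were Slu7 (321), l(1)10Bb (311) and ncm (243). The SR list was led by Srrm1 (332), SF2 (184) and tra2 (163), and the hnRNP list by heph (587), HnRNP-K (139) and Hrb98DE (112). The share was above that of all protein-coding genes in each of the 6 lists, and lists of this size were not ordered.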

How the data were processed

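Peaks were called by the authors against a control alignment on dm6 and compared by IDR, per the deposited text files. The aligner and caller were not given in the sources used here. Signal is the authors' deposited enrichment value of a peak. The deposited score is the authors' rescaled IDR, and the deposited −log10 values are those of the authors' IDR. The thresholded lists hold peaks with an IDR of at most 0.01. The conservative set, made from pooled reads with both replicates compared, gave the main values. No read totals were given, so depth and the precision it gives are unknown.

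Summits were assigned to every gene with a TSS within 500 bp, with Ensembl release 115 genes and without transposable-element genes. The strongest summit of a gene gave its signal. A replicate's value was taken from its own ranked list. At occupied genes it came from the peak that overlaps the pooled peak and has the nearest summit. At members without a conservative summit it came from the strongest peak within 500 bp of a TSS, which need not overlap the pooled ranked peak. Counts are descriptions without p-values, and replicates are biological per the labels. Python 3.11.15, pandas 2.3.3, NumPy 2.4.6 and Biopython 1.88 were used, and the steps were tested on simulated data. Identities are from global BLOSUM62 alignments of translated coding sequences.

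The members and lists were chosen with earlier results of these data known. All members are named, with the neighbours that share a summit and the 3 strongest occupied genes of each other list. Of 74 listed genes 73 matched, some through RefSeq synonyms found after the files were seen. Alternatives changed the peak set, the replicate, the IDR threshold, the distance, the TSSs and the assignment to genes.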

Additional observations from a re-analysis of the deposited data

How the results depend on the processing

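Over 102 alternative values, 84 stayed within their limits (1.5 times for a count, the spread between replicates for a median or ratio) and 18 moved. Some counts could not pass their limit upward: 23 of 33 members, 5 of 6 Sm genes and 7 of 9 U2 genes. The tally of 84 is therefore partly set by the limit. The count of occupied members ran from 17 (IDR of at most 0.001; 21.4% of all protein-coding genes) to 26 (IDR of at most 0.05; 37.3%), and was 23 with the series' other thresholded set (34.6%). Leaving out a replicate gave 19 to 21. Over the 11 settings, 14 members were occupied in all and 6 (SmF, LSm3, LSm7, Sf3b5, U2af50 and Prp31) in none. No share of all protein-coding genes is given for these counts, so they describe the members only. The Sm count was 3 at an IDR of at most 0.001. The LSm count was 1 at 200 bp and with each summit given to the nearest gene only. The U1 count was 0 at an IDR of at most 0.001, 2 at 0.05 and with the other set, and 1 to 2 with a replicate left out (2 without replicate 2). The ratio of the members' median signal to that of all occupied genes was 0.813 at an IDR of at most 0.001, 1.14 at 0.05, 1.03 at 1000 bp, 1.07 with the most upstream TSS only, 1.08 with the nearest gene only, 1.16 with the other set and 1.07 to 1.12 with a replicate left out, so no direction is drawn from it. The median offset was -24.5 bp with the nearest gene only. Shared summits fell to 9 at 200 bp, against 17 at 500 bp, and have no value with the nearest gene only. With CGATA in place of the octamer, 25 promoters matched, against 8. The cause of these changes was not tested. No paired analysis was possible because there is 1 group. Depth is unknown, so calls near the threshold cannot be weighed by it.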

Other observations

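Some members lie close together in the genome. Prp40 and Sf3b2 on 2L run towards each other and overlap by 188 bp at their ends, and both were occupied, although the summit counted for Prp40 is nearer the TSS of alpha4GT1. Prp8 and SmD3 on 2R are 5.73 kb apart and both were occupied, as were LSm-4 and SmB on 2L, 20.3 kb apart. SmD3 and SmF are 13.8 kb apart, and only SmD3 of this pair had a conservative summit. The genes snRNP-U1-C and Prp18 on 3R, 46.3 kb apart, both had none.

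The shape of the called peaks differed with signal. Of the 23 occupied members 14 had a peak of 356 bp, the width of 73.6% of all conservative peaks, with the summit at base 179 of each such peak. The other 9 had a narrower peak, down to 114 bp. The members with the 356 bp peak reached a pooled signal of at most 153, and the narrower ones started at 149.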
